A study of Homo sapiens with 17 samples.

Results

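The genes described here are the ligands, latency proteins, receptors and SMAD-pathway regulators of transforming growth factor beta (TGF-beta) signalling in human BJ fibroblasts. They were chosen by symbol from a list of 10 genes (TGFB1, TGFB2, INHBA, LTBP1, LTBP2, TGFBR1, TGFBR2, SMAD3, SKIL and SMAD7), with no measured value in the rule. Of the 10, 9 have a row in the table of 9699 transcripts, and SMAD7 was not analysed here. The table holds RNA-Seq and Ribo-Seq levels, that is the abundance of each mRNA and of the fragments of it that ribosomes protect, in 12 columns made from 17 samples (9 RNA-Seq and 8 Ribo-Seq).

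All cells were BJ cells, primary fibroblasts immortalized with hTERT. The study asked how transcription and translation differ between cells that grow and cells that have stopped growing or have been transformed. Proliferating cells were kept in normal medium, and quiescent cells had serum withdrawn. Pre-senescent and senescent cells carried a RASG12V gene under tamoxifen control, switched on with 1e-07 M 4-OHT for 5 days (pre-senescence) or 14 days (senescence). Cells labelled transformed carried hTERT, knockdowns of p16INK4A and a further gene, SV40 small T antigen and RASG12V from pBabe-puro. The proliferation values come from separate sequencing runs: a run 1 column for 2 samples, which is the control for quiescence and pre-senescence, and a run 2 column for 1 sample, which is the control for senescence and for the transformed cells. Quiescence in both assays and pre-senescence in RNA-Seq are also single columns for 2 samples each, and the remaining columns hold 1 sample each. There is thus 1 value per group and no test could be made. The table gives no read counts per transcript, so the counting error of each value could not be computed. A difference is called here by size alone, at 2-fold or more. The difference between the proliferation columns of the runs is the only spread the table gives, and it mixes culture and run. In RNA-Seq it also mixes read layout, since the study lists the run 1 libraries as paired-end and those of run 2 as not.

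TGF-beta is secreted bound to its own propeptide, and latent TGF-beta binding proteins (LTBP1 among them) tether that complex to the matrix until it is released. The freed ligand brings together the type II receptor TGFBR2 and the type I receptor TGFBR1, which phosphorylates SMAD3. SMAD3 then enters the nucleus with SMAD4 and acts on genes that include collagens. SMAD7 and SKIL (also called SnoN) restrain the pathway and are themselves among its targets. Activin A, the dimer of INHBA chains, signals to SMAD3 through its own receptors. In fibroblasts the pathway is known for matrix production and myofibroblast conversion, and TGF-beta family ligands are known among the factors that senescent cells secrete.

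Several properties of the samples bear on the values. The Ribo-Seq samples titled S.rp (senescence) and C3.rp (run 2 proliferation) carry each other's condition tag, and they were grouped here by title, as the columns are named. Of the 687 transcripts that were 2-fold higher in senescence by RNA-Seq, 643 (93.6%) were also on the higher side in Ribo-Seq under the titles, and of the 1260 that were 2-fold lower, 1242 (98.6%) were on the lower side. MKI67, a proliferation marker, stood at 43.02 FPKM in C3.rp and at the floor of 1.0 FPKM in S.rp. CDKN2A, which encodes p16INK4A, was not lower in the cells labelled transformed by RNA-Seq (12.64 against 6.75 FPKM in run 2 proliferation), and was at 5.51 against 8.92 FPKM by Ribo-Seq; in run 1 proliferation it was at 17.19 and 13.0 FPKM, above the transformed label in both assays. RNA-Seq thus goes against the label with the own-run control, whereas Ribo-Seq and run 1 proliferation do not. The table keeps 1 transcript per symbol, and which CDKN2A product it stands for was not established, so the knockdown could not be checked. These libraries are therefore called by their label. HRAS, a RAS gene (the labels do not say which RAS gene was introduced), was not higher in the cells labelled transformed. It was at 311.51 FPKM against 1284 in run 2 proliferation by RNA-Seq and at 212.3 against 2058 by Ribo-Seq. By RNA-Seq it was at 2415 FPKM in run 1 proliferation, 1254 in quiescence, 2102 in pre-senescence and 2087 in senescence. The HRAS level thus does not separate the columns labelled with RASG12V from the others. Whether the proliferating and quiescent cells carried the inducible gene is not given in the sources used here. All 9 fibroblast markers on a list were above the floor in every column (summed RNA-Seq level 5487 to 8042 FPKM), while none of 4 endothelial markers had a row. Of 4 blood markers CD68 was at 38.32 to 132.25 FPKM and CD14 at 1.0 to 1.67 FPKM by RNA-Seq and the others had no row, and of 3 smooth muscle markers SMTN alone had a row, at 60.06 to 141.21 FPKM. Of 5 epithelial markers KRT19 alone had a row, at 1.0 FPKM in run 1 proliferation and 39.76 FPKM in run 2 proliferation, so the proliferation columns differ in more than the members described below. The part of these differences in the results was not tested. In bulk samples such as these, a change in the number of cells that express a gene and a change in RNA per cell cannot be told apart.

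Promoter sequences are shown for TGFB2, TGFBR2 and SKIL, the members that differed 2-fold in senescence by RNA-Seq and also hold one of the motifs searched. Each runs 5′ to 3′ on the strand of the gene, from 250 bases before the start of transcription to the start base (251 bases), as given by RefSeq on GRCh38.p14. The deposited values were made on Ensembl transcripts, with hg19 named as the build in the submitters' processing notes, so these coordinates are not theirs. For TGFBR2 another start is given, with the window chr3:30606106-30606356, which holds none of the motifs and is not shown. Which start belongs to the TGFBR2 transcript measured here was not established. Capitals mark an E-box and then a TATA box in TGFB2, an AP-1 element in TGFBR2 and a cAMP response element in SKIL, all spelled out after the sequences.
TGFB2, chr1:218345086-218345336, plus strand: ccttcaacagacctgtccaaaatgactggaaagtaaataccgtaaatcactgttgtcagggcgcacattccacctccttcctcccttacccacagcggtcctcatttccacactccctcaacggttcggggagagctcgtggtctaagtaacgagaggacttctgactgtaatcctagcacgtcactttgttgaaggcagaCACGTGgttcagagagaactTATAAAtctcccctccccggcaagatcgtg
TGFBR2, chr3:30606351-30606601, plus strand: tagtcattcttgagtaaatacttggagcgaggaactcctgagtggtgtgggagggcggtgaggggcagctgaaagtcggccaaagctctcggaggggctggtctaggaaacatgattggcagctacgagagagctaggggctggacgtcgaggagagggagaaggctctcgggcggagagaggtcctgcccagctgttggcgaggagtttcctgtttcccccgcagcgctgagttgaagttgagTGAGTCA
SKIL, chr3:170357465-170357715, plus strand: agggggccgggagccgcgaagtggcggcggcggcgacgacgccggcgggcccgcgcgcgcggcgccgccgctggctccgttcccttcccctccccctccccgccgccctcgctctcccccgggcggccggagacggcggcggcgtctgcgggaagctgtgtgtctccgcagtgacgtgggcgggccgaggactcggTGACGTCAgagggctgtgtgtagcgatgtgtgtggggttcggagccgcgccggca
Motifs were searched on both strands in the same window of 35116 promoters, 23 of which belong to the 9 members with a row. GTCTAGAC, the palindromic SMAD box, was in 0.202% of all promoters and in 0 of the 23. The AP-1 element TGAGTCA, or its reverse complement TGACTCA, was in 4.95% of all and in 2 of the 23, beginning 6 bases before the start in TGFBR2 and in a promoter of SMAD3. The cAMP response element TGACGTCA was in 1.85% of all and in 2 of the 23, at 54 bases before the start in SKIL and 94 bases before in LTBP1. The E-box CACGTG was in 7.26% of all and in 2 of the 23, at 49 bases before the start in TGFB2 and in SMAD3. The TATA box TATAAA was in 11.5% of all and in 2 of the 23, at 29 bases before the start in TGFB2 and 11 bases before in INHBA. The last 3 motifs were chosen after seeing the data. A match describes the letters only, and no binding was measured here.

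The ligands moved apart from each other. TGFB2 was far higher in senescence than in any other condition, in RNA-Seq and more so in Ribo-Seq, while TGFB1 had its lowest level there. INHBA was highest in the cells labelled transformed. Levels are in FPKM, fragments per kilobase of transcript scaled to the mapped reads of the library, and the authors had raised every value below 1.0 FPKM to 1.0, a floor that makes the differences of such values bounds.

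TGFB1 (ENST00000221930) encodes the most widely expressed TGF-beta ligand. Its RNA-Seq level was 56.62 FPKM in run 1 proliferation, 58.13 in quiescence, 40.55 in pre-senescence, 78.33 in run 2 proliferation, 26.66 in senescence and 80.99 in the cells labelled transformed. By Ribo-Seq the levels in the same order were 56.12, 65.39, 38.38, 91.45, 34.09 and 68.26 FPKM. Senescence was thus below every other condition in both assays. Against run 2 proliferation, TGFB1 in senescence was 2.94-fold lower by RNA-Seq (log2 difference -1.55) and 2.68-fold lower by Ribo-Seq (-1.42), where the proliferation columns themselves differ by 0.47 and 0.70. Set against run 1 proliferation the differences were -1.09 and -0.72, so that the Ribo-Seq difference no longer reached 2-fold. The cells labelled transformed and run 2 proliferation differed by 0.05 in RNA-Seq, less than the runs did.

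TGFB2 (ENST00000366929) encodes another TGF-beta ligand. Its RNA-Seq level was 3.50 FPKM in run 1 proliferation, at the floor of 1.0 in quiescence, 1.15 in pre-senescence, 1.8 in run 2 proliferation, 11.40 in senescence and at the floor of 1.0 in the cells labelled transformed. By Ribo-Seq it stood at 10.24, 3.03, 3.28, 6.68, 88.77 and 5.11 FPKM in the same order. Senescence stood above all other conditions in both assays, and quiescence and pre-senescence stood below both proliferation columns. In senescence TGFB2 was 6.51-fold higher than in run 2 proliferation by RNA-Seq (2.70 on the log2 scale) and 13.3-fold higher by Ribo-Seq (3.73). These differences were above those of 99.4% and 99.7% of all transcripts, respectively. Against run 1 proliferation they were 1.70 and 3.12. The pre-senescent cells, with the same oncogene switched on for 5 days, were on the opposite side: 3.04-fold lower than run 1 proliferation by RNA-Seq (-1.61) and 3.12-fold lower by Ribo-Seq (-1.64). Quiescent cells were at least 3.50-fold lower by RNA-Seq and 3.38-fold lower by Ribo-Seq (-1.76). Set against run 2 proliferation, the pre-senescence differences were -0.61 and -1.03, so that the RNA-Seq value no longer reached 2-fold. The quiescence differences from run 2 proliferation were -0.81 (at least this low) and -1.14. Whether that RNA-Seq difference reached 2-fold is not known, because the value was at the floor. In the cells labelled transformed TGFB2 was lower than in run 2 proliferation by at least 0.81 on the log2 scale in RNA-Seq and had a log2 difference of -0.39 in Ribo-Seq, where run 2 proliferation was itself lower than run 1 proliferation (-1.0 and -0.62). Set against run 1 proliferation the differences were -1.81 (at least this low) and -1.0, both at 2-fold or beyond. RefSeq places TGFB2-AS1 and TGFB2-OT1 over TGFB2. Where counting ignores strand, reads of the antisense TGFB2-AS1 cannot be told apart from those of TGFB2. The strand of TGFB2-OT1 was not compared, so its reads may not be told apart even with strand-aware counting.

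INHBA (ENST00000242208), the chain of activin A, was at the floor of 1.0 FPKM in RNA-Seq in run 1 proliferation and in quiescence. Its RNA-Seq level was 3.46 FPKM in pre-senescence, 3.09 in run 2 proliferation, 3.41 in senescence and 6.05 in the cells labelled transformed. By Ribo-Seq it stood at 5.26 FPKM in run 1 proliferation, 2.15 in quiescence, 17.38 in pre-senescence, 14.09 in run 2 proliferation, 21.45 in senescence and 34.09 in the cells labelled transformed. The highest level was in the transformed label and the lowest in quiescence in Ribo-Seq, and the run 2 columns were all above run 1 proliferation. Pre-senescence exceeded run 1 proliferation at least 3.46-fold by RNA-Seq and 3.30-fold by Ribo-Seq (1.72 on the log2 scale). Run 2 proliferation itself exceeded run 1 proliferation by at least 1.63 in RNA-Seq and by 1.42 in Ribo-Seq, nearly the same size, and against run 2 proliferation the pre-senescence differences were 0.16 and 0.30. The cells labelled transformed were 2.42-fold above run 2 proliferation by Ribo-Seq (1.27) and 0.97 above it on the log2 scale by RNA-Seq. Senescence differed from run 2 proliferation by 0.14 in RNA-Seq and 0.61 in Ribo-Seq, less than the runs differed. Against run 1 proliferation senescence was higher by at least 1.77 in RNA-Seq and by 2.03 in Ribo-Seq, both past 2-fold. The transformed label was higher than run 1 proliferation by at least 2.60 in RNA-Seq. INHBA-AS1 lies over INHBA, with the same limit as for TGFB2.

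Among the latency proteins, LTBP1 stayed within 2-fold of its control in every comparison and LTBP2 was lower than its control in both run 2 conditions. LTBP1 (ENST00000354476), which ties latent TGF-beta to the matrix, was at 46.92 FPKM in run 1 proliferation, 70.89 in quiescence, 41.01 in pre-senescence, 45.56 in run 2 proliferation, 35.04 in senescence and 45.76 in the cells labelled transformed by RNA-Seq. Its Ribo-Seq levels were 66.24, 121.25, 90.80, 84.25, 100.74 and 84.32 FPKM in the same order. The order of conditions differed between the assays: senescence had the lowest LTBP1 level in RNA-Seq and the level next below quiescence in Ribo-Seq. In quiescence LTBP1 was 0.60 (RNA-Seq) and 0.87 (Ribo-Seq) above run 1 proliferation on the log2 scale, against 0.04 and 0.35 between the runs.

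LTBP2 (ENST00000261978), a relative of LTBP1 in elastic fibres that does not bind latent TGF-beta, stood at 16.62, 20.42, 12, 32.42, 9.85 and 15.46 FPKM in RNA-Seq in the order run 1 proliferation, quiescence, pre-senescence, run 2 proliferation, senescence and cells labelled transformed. By Ribo-Seq these levels were 15.41, 28.29, 12.56, 42.50, 13.23 and 12.94 FPKM. Run 2 proliferation was the highest in both assays. Against it, senescence was 3.29-fold lower by RNA-Seq (-1.72) and 3.21-fold lower by Ribo-Seq (-1.68), and the cells labelled transformed were 2.10-fold and 3.28-fold lower (-1.07 and -1.72). The runs differed by 0.96 and 1.46, and against run 1 proliferation none of these differences reached 2-fold: senescence was at -0.75 and -0.22, and the transformed label at -0.10 and -0.25.

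Among the receptors, TGFBR2 was highest in senescence in both assays and TGFBR1 was highest in the cells labelled transformed. TGFBR2 (ENST00000359013), the receptor that binds the ligand, was at 52.91, 69.84, 62.69, 50.84, 106.90 and 75.41 FPKM in RNA-Seq, again from run 1 proliferation through quiescence, pre-senescence, run 2 proliferation and senescence to the transformed label. Its Ribo-Seq levels were 44.09, 65.92, 52.41, 31.09, 100.28 and 57.43 FPKM. All conditions were above both proliferation columns. Senescence was 2.10-fold above run 2 proliferation by RNA-Seq (1.07) and 3.23-fold above it by Ribo-Seq (1.69), and 1.01 and 1.19 above run 1 proliferation on the log2 scale, where the runs differed by 0.06 in RNA-Seq and 0.50 in Ribo-Seq, run 2 being the lower. In the cells labelled transformed TGFBR2 was 0.57 and 0.89 above run 2 proliferation.

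TGFBR1 (ENST00000552516), the kinase that acts on SMAD3, stood at 8.60, 8.89, 5.80, 10.87, 6.42 and 14.56 FPKM in RNA-Seq and at 7.87, 11.56, 8.46, 13.66, 15.00 and 22.26 FPKM in Ribo-Seq in that order. The assays did not order senescence alike: it was below both proliferation columns in RNA-Seq (log2 difference -0.76 from run 2) and above both in Ribo-Seq (0.14 from run 2). Against the transformed label, senescence was 2.27-fold lower in TGFBR1 RNA (-1.18) and -0.57 in Ribo-Seq. TGFBR2 lay above TGFBR1 in every column of both assays, and FPKM takes transcript length into account.

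SMAD3 and SKIL, which act inside the nucleus, did not reach 2-fold higher anywhere. SMAD3 (ENST00000327367), the signal transducer, was at 27.61 FPKM in run 1 proliferation, 23.64 in quiescence, 14.44 in pre-senescence, 29.99 in run 2 proliferation, 17.91 in senescence and 31.92 in the cells labelled transformed by RNA-Seq. By Ribo-Seq the levels were 40.14, 43.23, 21.22, 41.80, 27.07 and 33.92 FPKM. Pre-senescence and senescence were the lowest in both assays, at log2 differences of -0.94 and -0.74 from their own controls in RNA-Seq and of -0.92 and -0.63 in Ribo-Seq, while the runs differed by 0.12 and 0.06. RefSeq places SMAD3-AS1 over SMAD3, with the same limit as for TGFB2.

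SKIL (ENST00000458537), the co-repressor of SMAD proteins, was at 8.94, 7.93, 6.59, 6.95, 3.25 and 4.41 FPKM in RNA-Seq, in the order used for the receptors. Its Ribo-Seq levels were 15.17, 10.41, 5.54, 10.34, 6.39 and 8.62 FPKM. Every condition other than quiescence was below both proliferation columns in both assays. In RNA-Seq SKIL was 2.14-fold lower in senescence than in run 2 proliferation (-1.10), against a difference of 0.36 between the runs. In Ribo-Seq it was 2.74-fold lower in pre-senescence than in run 1 proliferation (-1.45), where the runs differed by 0.55, and -0.90 against run 2 proliferation. The RNA-Seq difference in pre-senescence was -0.44 and the Ribo-Seq difference in senescence -0.69, both under 2-fold. Against the control of the other run they were -0.08 and -1.25, so that the senescence value passed 2-fold.

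The members past 2-fold were counted in each comparison. In senescence, by RNA-Seq, TGFB2 and TGFBR2 were higher (2 of 9, where 7.08% of all transcripts were) and TGFB1, SKIL and LTBP2 were lower (3 of 9, where 13.0% were). The median difference of the members was -0.74, against -0.00 over all transcripts. By Ribo-Seq the median was on the other side, at 0.135 against -0.10 over all transcripts. In Ribo-Seq TGFB2 and TGFBR2 were higher (2 of 9, background 11.0%) and TGFB1 and LTBP2 were lower (2 of 9, background 16.6%). Against run 1 proliferation the members past 2-fold in senescence were not all the same. By RNA-Seq INHBA was higher (at least 1.77), and LTBP2 (-0.75) did not pass. By Ribo-Seq INHBA (2.03) was higher and SKIL (-1.25) lower, in place of TGFB1 (-0.72) and LTBP2 (-0.22). In the cells labelled transformed, which share their control with senescence, LTBP2 alone was lower by RNA-Seq (1 of 9, background 5.33%) and none was higher (background 4.92%). By Ribo-Seq INHBA was higher (background 5.28%) and LTBP2 lower (background 7.36%) in those cells. Against run 1 proliferation, LTBP2 did not pass there in either assay (15.46 against 16.62 FPKM and 12.94 against 15.41). By RNA-Seq INHBA was then higher (6.05 FPKM against the floor of 1.0). TGFB2 (at the floor of 1.0 against 3.50 FPKM) and SKIL (4.41 against 8.94) were lower. By Ribo-Seq INHBA (34.09 against 5.26 FPKM) and TGFBR1 (22.26 against 7.87) were higher, and TGFB2 (5.11 against 10.24) was lower.

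Quiescence and pre-senescence share the run 1 control. In quiescence TGFB2 was lower by RNA-Seq (1 of 9, background 2.37%) and none was higher (background 4.01%). In Ribo-Seq TGFB2 and INHBA were lower (2 of 9, background 8.02%), and again none was higher (background 9.11%). Against run 2 proliferation TGFBR2 was higher in quiescence by Ribo-Seq (1.08), while TGFB2 (-1.14) and INHBA (-2.71) were again lower. By RNA-Seq INHBA was lower against that control (-1.63, at least this low), and TGFB2 stood at -0.81, at least this low. In pre-senescence INHBA was higher (background 1.77%) and TGFB2 lower (background 2.0%) by RNA-Seq. By Ribo-Seq INHBA was higher (background 7.13%) and TGFB2 and SKIL were lower (2 of 9, background 10.3%). Against run 2 proliferation other members passed 2-fold in pre-senescence: by RNA-Seq SMAD3 (-1.05) and LTBP2 (-1.43) were lower in place of INHBA and TGFB2, and by Ribo-Seq TGFB1 (-1.25) and LTBP2 (-1.76) were lower beside TGFB2 (-1.03).

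Senescence was also set against the transformed label, both from run 2 and both labelled as carrying RASG12V. TGFB2 was at least 11.4-fold higher in senescence by RNA-Seq (1 of 9, background 8.08%) and 17.4-fold higher by Ribo-Seq (4.12 on the log2 scale, background 12.7%). TGFB1 was 3.04-fold lower by RNA-Seq (-1.60) and, with TGFBR1, made up the members that were lower (2 of 9, background 15.1%). In Ribo-Seq TGFB1 was lower by 2.00-fold (1 of 9, background 17.3%). This difference lay at the limit (-1.0017) and did not reach it with log2(FPKM + 1) or with centring on the median. Between the proliferation columns INHBA and TGFB2 passed 2-fold by RNA-Seq (2 of 9, background 7.83%) and INHBA and LTBP2 by Ribo-Seq (2 of 9, background 18.5%).

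Translation efficiency (TE) is the log2 ratio of Ribo-Seq to RNA-Seq level, so that a TE of 0 means equal FPKM in both. The ligands at low RNA level, TGFB2 and INHBA, had the highest TE of the members, and TGFBR2 had a TE below 0 in every condition (-0.08 to -0.71). In senescence the TE of TGFB2 was 2.96, higher than that of 99.3% of transcripts, against 1.93 in run 2 proliferation and 1.55 in run 1 proliferation. Its TE in pre-senescence was 1.51, and it was at least 1.60 in quiescence and at least 2.35 in the cells labelled transformed, where the RNA was at the floor. INHBA had a TE of 2.33 in pre-senescence, 2.19 in run 2 proliferation, 2.65 in senescence and 2.49 in the transformed label, above 96.3% to 98.6% of transcripts in these columns.

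In senescence the TE of all 9 members was above that in run 2 proliferation, where 47.2% of all transcripts were above it, and the median difference was 0.46 against -0.03. TGFB2 alone passed 2-fold (1.03, background 9.43% in either direction). TGFBR1 followed at 0.89, from a TE of 0.33 to 1.22, and LTBP1 at 0.64, from 0.89 to 1.52, while LTBP2 differed by 0.04. Between the runs the TE of TGFBR1 differed by 0.46 and that of LTBP1 by 0.39. Set against run 1 proliferation the senescence TE was also higher for the members other than INHBA, whose run 1 TE is a lower bound (at least 2.40 against 2.65). Against that control TGFBR1 (1.35) and LTBP1 (1.03) passed 2-fold beside TGFB2 (1.41). For SMAD3, SKIL, TGFB1 and LTBP2 the senescence difference in TE ran from 0.04 to 0.40, and for TGFB1 and LTBP2 it was smaller than the difference between the runs (0.24 and 0.50). With the condition tags in place of the titles this pattern would not hold, since both Ribo-Seq columns would be exchanged. Under the titles, higher TE in senescence was not particular to the members. Among the lists of further pathway genes described below, the median difference in TE was 0.71 for latency, storage and activation. It was 0.56 for other receptors and co-receptors, 0.28 for activin antagonists and 0.09 for other SMADs and adaptors. For other negative regulators, TGF-beta-induced genes and other ligands it was -0.01, -0.11 and -0.24.

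Elsewhere the TE of few members changed. In pre-senescence that of SKIL went from 0.76 to -0.25 (difference -1.01, 1 of 9, background 14.5%), and was -0.82 against run 2 proliferation. In quiescence the TE value of INHBA passed 2-fold (1 of 9, background 7.89%), but both of its RNA-Seq values were at the floor and the difference cannot be read. In the cells labelled transformed no TE passed 2-fold (0 of 9, background 3.41%), the differences running from -0.65 for LTBP2 to 0.42 for TGFB2, the latter a lower bound. Between senescence and the transformed label none passed either (0 of 9, background 6.61%), with values from 0.01 for SKIL to 0.68 for LTBP2 and that of TGFB2 at most 0.61. Between the proliferation columns none passed (0 of 9, background 9.69%).

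For each member that passed 2-fold in a comparison with proliferation, the transcripts with the most similar pattern were sought among 8091 transcripts. Likeness was the smallest root mean square difference over the 8 log2 differences (4 conditions in both assays). The 8091 were at 5 FPKM or more in RNA-Seq of a proliferation column, a level that TGFB2 and INHBA did not reach. The part of this filter in the distances of TGFB2 and INHBA was not tested. TGFB1 was followed most closely by FUT11 (0.124), ZFP36L2 (0.190) and EEFSEC (0.196). TGFBR2 was closest to ATP6AP1 (0.204), APP (0.206) and TNFRSF10B (0.211), and LTBP2 to MXRA8 (0.228), SNX18 (0.256) and COL1A2 (0.262). SKIL lay nearest to VANGL1, MALT1 and LCMT2 (0.139, 0.157 and 0.204). The nearest to TGFB2 lay farther off, at 1.03 for BDNF and 1.14 for PLK2, and INHBA had SPHK1 (0.634), PPP1R15A (0.674) and HMGA2 (0.696). These are likenesses over few values that share controls, not tests.

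The wider pathway was described from 65 further genes in 7 lists, of which 45 had a row. Among other ligands (3 of 10 with a row), GDF15, a distant member of the family, was at 162.91 FPKM in senescence against 5.47 in run 2 proliferation by RNA-Seq, and at 436.37 against 17.27 by Ribo-Seq. In run 1 proliferation GDF15 was higher than in run 2 proliferation, at 15.24 FPKM by RNA-Seq and 44.07 by Ribo-Seq. GDF11 was at 23.67 FPKM in senescence against 9.43 in run 2 proliferation by RNA-Seq, and at 8.17 against 3.92 by Ribo-Seq. GDF11 was also higher than in run 1 proliferation (1.44 FPKM) by Ribo-Seq in quiescence (4.47) and in pre-senescence (8.62). Against run 2 proliferation the quiescence value did not differ 2-fold. INHBE, another activin chain, was at 12.69 FPKM in quiescence against 3.38 in run 1 proliferation by RNA-Seq and 30.44 against 3.23 by Ribo-Seq, and at the floor in all run 2 columns. In pre-senescence INHBE was lower, at 1.34 FPKM by RNA-Seq and at the floor by Ribo-Seq. Of 5 other receptors and co-receptors, none passed 2-fold in RNA-Seq against the own-run control, where the background lay between 1.77% and 13.0%. TGFBR3 was at 2.32 FPKM in senescence and 2.26 in the cells labelled transformed by RNA-Seq, within 2-fold of run 2 proliferation (4.43) and below run 1 proliferation (7.58) by more than that. By Ribo-Seq ACVR2A, an activin receptor, was higher in quiescence (4.91 against 2.42 FPKM) and in pre-senescence (7.16), and TGFBR3 (betaglycan) was lower in pre-senescence (5.57 against 13.54 FPKM) and in the cells labelled transformed (2.87 against 10.88). With run 2 proliferation as the control (ACVR2A at 4.72 and TGFBR3 at 10.88 FPKM) none of the quiescence and pre-senescence values differed 2-fold.

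Of the activin antagonists FST and FSTL3, FST was below both proliferation columns in senescence, while the direction of FSTL3 turned with the control. FSTL3 in senescence was at 8.44 FPKM by RNA-Seq and 6.92 by Ribo-Seq, below run 2 proliferation (16.66 and 14.7) and above run 1 proliferation (4.49 and 6.19). In pre-senescence FSTL3 was at 1.68 FPKM by RNA-Seq and 1.9 by Ribo-Seq, more than 2-fold below both proliferation columns. FST (follistatin) stood at 8.13 FPKM against 26.28 in run 2 proliferation by RNA-Seq and at 30.99 against 63.56 by Ribo-Seq. In pre-senescence it was at 37.31 against 85.06 FPKM by RNA-Seq and at 106.09 against 184.05 by Ribo-Seq, but above run 2 proliferation in both assays, so that its direction there also turned with the control. Among 9 genes of latency, storage and activation, 6 were 2-fold lower and 0 higher in senescence by RNA-Seq (background 13.0% and 7.08%), and 3 lower and 0 higher by Ribo-Seq (background 16.6% and 11.0%). THBS1, an activator of latent TGF-beta, was at 91.77 against 805.31 FPKM, and DCN (decorin), which binds TGF-beta, at 11.30 against 164.26 FPKM by RNA-Seq in senescence. In pre-senescence 4 of the 9 were lower in RNA-Seq (background 2.0%; THBS1 158.19 against 415.21 FPKM), and in the cells labelled transformed 4 were lower (background 5.33%). Against run 1 proliferation the RNA-Seq counts were 4 lower in senescence, and 1 lower and 1 higher in the cells labelled transformed. In run 2 proliferation 4 of the 9 were 2-fold above run 1 proliferation in each assay (background 7.83% and 18.5% in either direction), DCN among them (164.26 against 27.61 FPKM).

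Of 4 other SMADs and adaptors, SMAD4 was lower and FKBP1A higher in senescence by RNA-Seq (background 13.0% lower and 7.08% higher), SMAD4 at 3.60 against 9.14 FPKM and FKBP1A at 409.51 against 157.41 FPKM. FKBP1A (FKBP12), which binds type I receptors, did not differ 2-fold by Ribo-Seq (215.61 against 205.19 FPKM). Among 7 other negative regulators, NEDD4L, a ubiquitin ligase for SMAD2 and SMAD3, was higher in senescence (30.87 against 10.32 FPKM by RNA-Seq, 64.67 against 17.99 by Ribo-Seq), and SKI, the relative of SKIL, was lower (12.47 against 24.97 FPKM by RNA-Seq, 5.33 against 14.31 by Ribo-Seq). TGIF1 was lower by Ribo-Seq only in senescence (7.86 against 18.59 FPKM, where run 1 proliferation was at 6.60; background 16.6% lower and 11.0% higher by Ribo-Seq).

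Genes that TGF-beta is known to induce (15 of 17 with a row) differed between the proliferation columns themselves. Against run 1 proliferation, 11 of the 15 were 2-fold higher in RNA-Seq and 10 in Ribo-Seq, with 0 lower (background 7.83% and 18.5% in either direction; median difference 1.52 and 1.47, against -0.05 and 0.00 over all transcripts). TGFBI stood at 61.48 against 6.66 FPKM and COL1A1 at 1328 against 371.15 by RNA-Seq. Against the run 2 control 8 of the 15 were lower and 0 higher in senescence by RNA-Seq (background 13.0% and 7.08%), and 7 lower and 0 higher by Ribo-Seq (background 16.6% and 11.0%). Those that were lower in both assays were TGFBI, COL1A1, COL1A2, COL4A1, COL5A1 and ELN (elastin, at the floor in every column but run 2 proliferation). Against run 1 proliferation 2 were lower and 2 higher in senescence by RNA-Seq, and 2 lower and 6 higher by Ribo-Seq. By RNA-Seq COL1A1 at 51.57 FPKM was below both proliferation columns in senescence, but COL1A2 (531.34 against 384.36 FPKM) and COL5A1 (47.6 against 33.55) were above run 1 proliferation and TGFBI (6.52 against 6.66) was close to it. By Ribo-Seq COL1A2 and COL5A1 were also above run 1 proliferation (1770 against 786.26 and 97.54 against 41.49 FPKM), as were COL4A1 (98.2 against 88.43) and TGFBI (15.21 against 13.36) by less. LOX at 207.58 FPKM by RNA-Seq in senescence was above both proliferation columns (51.96 in run 1 and 177.85 in run 2). In the cells labelled transformed 7 of the 15 were lower by RNA-Seq (background 5.33%) and 8 by Ribo-Seq (background 7.36%). Against run 1 proliferation 3 were lower and 5 higher by RNA-Seq, and 2 lower and 6 higher by Ribo-Seq. CTGF (86.08 against 60.66 FPKM), TGFBI (10.53 against 6.66) and COL1A2 (766.3 against 384.36) lay above run 1 proliferation by RNA-Seq in these cells, whereas TAGLN (54.42 against 408.53 FPKM) and ACTA2 (7.79 against 51.98), the smooth muscle cytoskeletal genes, were below both proliferation columns. In quiescence 1 was higher (BHLHE40, 31.95 against 5.35 FPKM) and 3 lower by RNA-Seq (background 4.01% and 2.37%), and 5 higher and 2 lower by Ribo-Seq (background 9.11% and 8.02%); against run 2 proliferation 1 was higher and 11 lower by RNA-Seq, and 1 higher and 9 lower by Ribo-Seq. In pre-senescence 1 was higher and 3 lower by RNA-Seq (background 1.77% and 2.0%), and 1 higher and 2 lower by Ribo-Seq (background 7.13% and 10.3%). Against run 2 proliferation 0 were higher in pre-senescence, with 11 lower by RNA-Seq and 12 by Ribo-Seq.

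**Figure D1:**
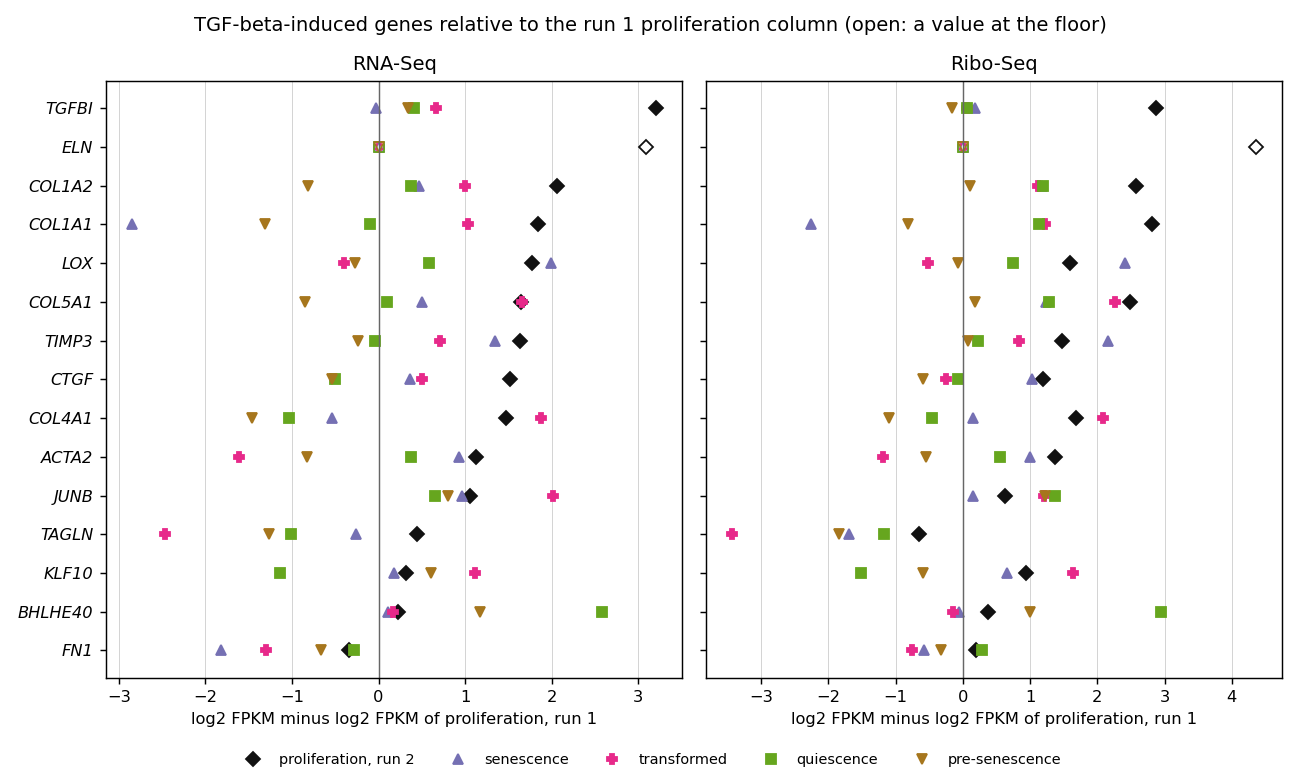
Log2 level of the 15 TGF-beta-induced genes relative to run 1 proliferation in RNA-Seq (left) and Ribo-Seq (right), with 1 symbol per column of the table and no error bar; open symbols involve a value at the floor. Run 2 proliferation (diamonds) lies at least 2-fold to the right for 11 of 15 genes in RNA-Seq and 10 in Ribo-Seq, so differences from the run 2 control and from the run 1 control are not alike for these genes.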

How the data were processed

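Levels of mRNA (RNA-Seq) and of ribosome-protected fragments (Ribo-Seq) of BJ cells were taken from the deposited table of 9699 transcripts in 12 columns. The authors aligned reads with Bowtie to curated Ensembl protein-coding transcripts (hg19 in the submitters' processing notes), counted them per transcript (for Ribo-Seq on the coding sequence) and deposited FPKM values, with those below 1.0 set to 1.0; whether the values of 2 samples in a column were pooled or averaged is not given in the sources used here. The table keeps 1 transcript per symbol, and strand-aware counting is not given in the sources used here. The table holds no read counts, and the read totals that the study gives per library were not used here, so no counting interval is given. The study compares each condition with the proliferating control of its own sequencing run, and the same was done here. Log2 differences of FPKM and of TE (log2 Ribo-Seq minus log2 RNA-Seq FPKM) were computed with Python 3.11.15, pandas 2.3.3 and numpy 2.4.6, no pseudocount was added, and the script was tested on simulated data. With 1 value per group a difference was called at 2-fold. Named genes were the members, pathway genes past 2-fold in RNA-Seq or Ribo-Seq with their lists, and for each member past 2-fold the 3 nearest transcripts at 5 FPKM or more in RNA-Seq of a proliferation column. The members and lists were chosen with earlier results of these data known. A few genes that these rules would name are not reported here, and those on the pathway lists were left out of the counts. Alternatives were a 1.5-fold limit, a sliding limit of 1.75 local SDs over 500 transcripts of like level, log2(FPKM + 1), a minimum of 5 FPKM, centring on the median, the control of the other run, exchange of the S.rp and C3.rp columns, and, chosen after seeing the data, leaving out values at the floor and, for the pathway lists, the control of the other run. Promoters are from RefSeq (GRCh38.p14).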

Additional observations from a re-analysis of the deposited data

Results flagged for a closer look

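TGFB2 was above run 2 proliferation in senescence and on the lower side of it in the cells labelled transformed. By RNA-Seq the log2 difference was 2.70 in senescence and -0.81 in the transformed label, the latter at least this low because the value was at the floor. By Ribo-Seq the log2 differences were 3.73 and -0.39. The values of the transformed label did not reach 2-fold as listed against run 2 proliferation, but did against run 1 proliferation (-1.81 and -1.0). The difference between these conditions was not tested, because each condition is 1 sample and both share the same control sample.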

How the results depend on the processing

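No paired analysis was possible because the table holds no column per replicate (the replicates of a group share 1 column), so no replicate could be left out either. The number of members past the limit, out of 9, changed by more than 1.5 times as follows (main value first); smaller changes, such as 5 to 7 at 1.5-fold and to 4 with log2(FPKM + 1) in senescence by RNA-Seq, are not listed. In quiescence the RNA-Seq count of 1 became 2 at 1.5-fold and 0 with a minimum of 5 FPKM or without values at the floor; the Ribo-Seq count of 2 became 4 at 1.5-fold, 1 with the sliding limit or log2(FPKM + 1), and 0 with a minimum of 5 FPKM or without floor values; the TE count of 1 became 0 with the sliding limit, log2(FPKM + 1), the 5 FPKM minimum or no floor values. In pre-senescence the RNA-Seq count of 2 became 0 with the 5 FPKM minimum and 1 without floor values, the Ribo-Seq count of 3 became 1 with that minimum, and the TE count of 1 became 3 at 1.5-fold and 0 with the sliding limit, log2(FPKM + 1), centring or the other run's control. In senescence the RNA-Seq count of 5 became 3 with the sliding limit, under which pre-senescence also had 3. The Ribo-Seq count of 4 became 7 at 1.5-fold and 1 with the sliding limit, under which pre-senescence and the transformed label had 2 each, and the TE count of 1 became 4 at 1.5-fold, 3 with the other run's control and 6 with the exchange of S.rp and C3.rp. In the transformed label the RNA-Seq count of 1 became 4 at 1.5-fold and 3 with the other run's control, the Ribo-Seq count of 2 became 4 at 1.5-fold, and the TE count of 0 became 1 at 1.5-fold and 4 with the exchange. Between senescence and the transformed label the RNA-Seq count of 3 became 6 at 1.5-fold, the Ribo-Seq count of 2 became 4 at 1.5-fold and 1 with the sliding limit, log2(FPKM + 1), centring or no floor values, and the TE count of 0 became 5 at 1.5-fold, 1 with log2(FPKM + 1) and 5 with the exchange. The exchange reversed the senescence differences of Ribo-Seq by construction: TGFB1 1.42, TGFB2 -3.73, TGFBR2 -1.69 and LTBP2 1.68 against proliferation, TGFB1 0.42 against the transformed label, and the TE difference of TGFB2 became -6.44. No other alternative listed for the members reversed a called difference of a member. Apart from the exchange, whose cause is its own construction, and the minimum and floor settings, which leave members out, the cause was not tested. Values near 1.0 FPKM, those of TGFB2 and INHBA in RNA-Seq, are limited by the floor, and without read counts their precision was not estimated.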
